A study of Mus musculus with 6 samples.

Results

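Interferon regulatory factors (IRFs) are transcription factors that share a DNA-binding domain for GAAA repeats. The family is described here through 8 genes, *Irf1*, *Irf2*, *Irf3*, *Irf4*, *Irf5*, *Irf7*, *Irf8* and *Irf9*, taken by their symbols, among the 39179 mouse genes counted in bone marrow RNA. All 8 were expressed well enough to be tested, beside 15980 tested genes in all. The 3 *MxCDX2* mice carried both the *RsCDX2* allele, in which human *CDX2* lies behind a removable stop, and the *Mx1Cre* transgene, in which the interferon-inducible *Mx1* promoter drives the Cre recombinase. The 3 controls were single animals of different genotype, *RsCDX2* in control 1, *Mx1Cre* in control 2 and wild type in control 3, so that their spread also holds any effect of genotype. All 6 mice, the wild type included, received 3 injections of poly(I:C) at 10 µg per g of body weight at an age of 3 months, and RNA was prepared 6 weeks later. Poly(I:C) mimics viral RNA and is itself an inducer of interferons, and hence of several IRF genes, so every level given here is a level after this treatment.

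In interferon signalling IRF3, IRF5 and IRF7 act downstream of nucleic acid sensors and switch on interferon genes. IRF9 joins STAT proteins below the type I interferon receptor, while IRF1 is induced by interferon gamma and is opposed by IRF2 at shared sites. IRF8 and IRF4 are mainly lineage factors: IRF8 directs progenitors toward monocytes and dendritic cells and away from neutrophils, and IRF4 serves B cells, plasma cells and some dendritic cells. IRF5 is abundant in monocytes, macrophages and B cells.

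The libraries held between 38646101 and 49899650 reads counted on genes. Reads on the mouse gene *Cdx2* separated the labelled groups, with 4, 0 and 0 in control mice 1 to 3 and 152, 155 and 183 in *MxCDX2* mice 1 to 3. Alignment was to the mouse genome, so human *CDX2* had no count of its own. Whether these reads came from the transgene was not tested. The wild-type control stood apart from the other control mice on the second principal component, which held 15.6% of the variance of all tested genes, and markers of dendritic cells, megakaryocytes, T cells and stroma summed highest in it. A difference is called below when its absolute log2 fold change was above 1 and its adjusted p-value was below 0.05 in edgeR's quasi-likelihood test over all 15980 genes. Normalized counts are reads scaled to a common library size.

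The stretches in front of the start sites (RefSeq, GRCm38.p6) are shown for the members that differed between the groups, *Irf5* and *Irf8*, and for *Irf1* and *Irf2*, which hold response elements themselves. Each run gives the 250 bases before the start in the direction of transcription, and capitals mark matches to the interferon-stimulated response element core GAAANNGAAA, the ETS-IRF composite element GGAANNGAAA or the gamma-activated site TTCNNNGAA.

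*Irf8*, chr8:120736108-120736357, plus strand: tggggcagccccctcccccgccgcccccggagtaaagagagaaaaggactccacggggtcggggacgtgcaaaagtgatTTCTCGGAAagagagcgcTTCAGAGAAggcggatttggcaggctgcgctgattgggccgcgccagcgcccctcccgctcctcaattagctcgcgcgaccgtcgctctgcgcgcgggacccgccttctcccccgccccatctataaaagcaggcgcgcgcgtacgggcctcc

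*Irf5*, chr6:29526375-29526624, plus strand: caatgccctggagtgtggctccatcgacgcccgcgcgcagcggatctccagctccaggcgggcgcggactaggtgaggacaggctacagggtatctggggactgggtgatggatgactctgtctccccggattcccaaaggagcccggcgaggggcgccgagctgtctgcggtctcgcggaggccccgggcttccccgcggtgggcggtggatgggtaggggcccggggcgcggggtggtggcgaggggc

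*Irf1*, chr11:53769764-53770013, plus strand: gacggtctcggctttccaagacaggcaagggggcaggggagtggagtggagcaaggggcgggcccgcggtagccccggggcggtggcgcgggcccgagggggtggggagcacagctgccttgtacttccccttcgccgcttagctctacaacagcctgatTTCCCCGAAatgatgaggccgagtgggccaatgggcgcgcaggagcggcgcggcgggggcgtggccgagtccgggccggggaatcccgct

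*Irf2*, chr8:46739495-46739744, plus strand: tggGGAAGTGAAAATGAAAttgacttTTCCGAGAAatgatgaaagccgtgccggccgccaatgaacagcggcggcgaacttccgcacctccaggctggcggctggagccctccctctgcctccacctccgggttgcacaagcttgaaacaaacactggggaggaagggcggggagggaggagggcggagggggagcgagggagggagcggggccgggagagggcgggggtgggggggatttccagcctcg

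The search covered both strands of windows from 250 bases before to 50 bases after the start, 11 windows for the 8 genes, since *Irf1*, *Irf8* and *Irf9* have more than 1 start in the table. With the start counted as position 0, the first *Irf8* window held the gamma-activated site at -171 to -163 and again at -153 to -145, and that of *Irf1* held it at -90 to -82. The *Irf2* window held it at -224 to -216, next to a response element core at -241 to -232 that overlaps a composite element at -247 to -238. Of 32851 windows of this length over all genes in the table, 8.30% held a gamma-activated site, 3.44% a response element core and 2.72% a composite element. Among the members 3 of 11 windows, those of 3 of the 8 genes, had the first, and *Irf2* alone, in 1 window, had the other 2. The windows of *Irf3*, *Irf4*, *Irf5*, *Irf7* and *Irf9* held none of these letters.

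Of the 8 IRF genes, *Irf5* and *Irf8* were called higher in *MxCDX2* mice and none was called lower, while 4.59% of all tested genes were called higher and 9.03% lower. *Irf5*, *Irf8* and *Irf9* had all 3 *MxCDX2* mice above all 3 control mice, as had 21.4% of all tested genes. The other 5 genes overlapped between the groups. At an unadjusted p below 0.05, 3 members were higher and 0 lower, and DESeq2 and limma voom each called 2 higher and 0 lower. With 3 mice a side, the exact two-sided permutation test reaches p = 0.10 at best, the value it gave for *Irf5*, *Irf8* and *Irf9*.

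**Figure D1:**
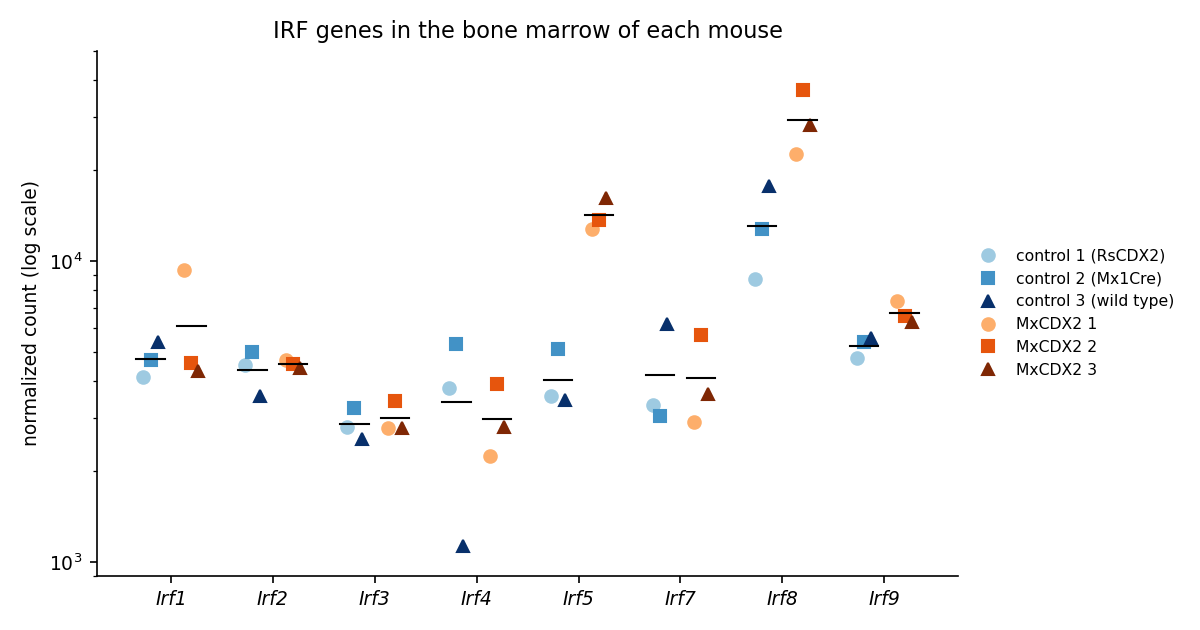
Normalized count of each IRF gene (log axis) in the 6 mice, with control mice in blue, *MxCDX2* mice in orange and the group mean as a bar. *Irf5*, *Irf8* and *Irf9* separate the groups, *Irf1* is highest in *MxCDX2* mouse 1 (9361), and *Irf4* is lowest in the wild-type control (1128).

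*Irf8* (ENSMUSG00000041515, GRCm38 chr8:120736358-120756694, plus strand) was the most abundant of the 8 by reads. Its normalized counts were 8706, 12780 and 17750 in control mice 1 to 3, and 22646, 37140 and 28423 in *MxCDX2* mice 1 to 3. The lowest *MxCDX2* mouse was above the highest control mouse, the wild type, and the control mice themselves spanned 2.04-fold. The means were 13078 ± 4529 and 29403 ± 7297 (SD, n = 3 each), a log2 fold change of 1.17 ± 0.30 (SE, adjusted p = 0.0354). That call rested on most of the mice: the adjusted p rose to 0.0717 without control 1 (log2 fold change 0.96), 0.0901 without control 2 (1.15), 0.102 without *MxCDX2* 2 (0.97) and 0.0957 without *MxCDX2* 3 (1.20), whereas it was 0.0163 without the wild type (1.47) and 0.0429 without *MxCDX2* 1 (1.33). A test against a change of more than 2-fold was not passed (adjusted p = 0.749).

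In bulk marrow a larger number of cells of a type and more RNA per cell cannot be told apart. Beside the marker counts that follow, 4.59% of all tested genes were called higher and 9.03% lower. Between the groups monocyte markers moved with *Irf8* and *Irf5*: 6 of the 10 monocyte markers, among them *Csf1r*, were called higher and none lower, and their summed normalized count was 364084, 333311 and 237994 in control mice 1 to 3 and 558732, 625579 and 651626 in *MxCDX2* mice 1 to 3. Among the control mice this sum was lowest in the wild type, where *Irf8* was highest. *Lyz2* alone made up most of the sum in control mice, with 282591.6, 269482.8 and 189486.2 in mice 1 to 3. Looked up after the values were seen, the single markers were split. Among control mice *Ccr2*, *Ly6c2*, *F13a1*, *Ms4a6c* and *Lyz2* were lowest in the wild type. *Cx3cr1*, *Fcgr1* and *Ly86* were highest there, and *Csf1r* and *Cd14* lay between the other control mice. *Csf1r*, which encodes the receptor for the monocyte growth factor CSF1, had 6624.5, 10078.6 and 9319.3 normalized counts in control mice 1 to 3 and 31519.2, 40189.9 and 38294.7 in *MxCDX2* mice 1 to 3 (log2 fold change 2.08 ± 0.20, adjusted p = 0.00196). No marker on the list was at 0. Of the 10 neutrophil markers 6 were called lower, with sums of 1894888 to 3078624 in control and 866038 to 1167460 in *MxCDX2* mice. Of the markers of dendritic cells, which also use *Irf8*, 1 of 7 conventional and 3 of 7 plasmacytoid ones were called, all lower in *MxCDX2* mice. Within the control mice they peaked where *Irf8* did, in the wild type, with sums of 4411, 4237 and 9278 for the conventional and 11916, 11417 and 30758 for the plasmacytoid list in control mice 1 to 3, against 3400 to 4537 and 12534 to 15152 in *MxCDX2* mice. Of the plasmacytoid sum *Tcf4* gave 5614.4, 7766.8 and 7099.9 in *MxCDX2* mice 1 to 3, and 2785.8, 3014.7 and 5802.9 in control mice. Looked up after the values were seen, it alone of the 7 had a positive log2 fold change (0.82 ± 0.30, not called). The 3 called were *Siglech*, *Klk1* and *Cox6a2*. The part of monocytes, neutrophils and dendritic cells in the *Irf8* and *Irf5* levels was not tested.

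*Irf5* (ENSMUSG00000029771, chr6:29526625-29541871, plus strand) changed most of the family. Its normalized counts were 3568, 5090 and 3455 in control mice 1 to 3, and 12751, 13655 and 16194 in *MxCDX2* mice 1 to 3. The *MxCDX2* mice lay close together, within 1.27-fold, and far above the *Mx1Cre* control, the highest of the control mice. The means were 4038 ± 913 and 14200 ± 1785, that is 3.52-fold, with a log2 fold change of 1.81 ± 0.19 (adjusted p = 0.00224). With each mouse left out in turn the log2 fold change stayed between 1.71 and 2.02 with adjusted p-values of at most 0.0162, and the test against a change of more than 2-fold was passed (adjusted p = 0.0212). The gene shares 14.1% of its exon bases with *Tnpo3* on the opposite strand, and whether reads were counted by strand is not given in the sources used here. *Tnpo3*, a nuclear import receptor gene, had 3530 to 4110 normalized counts in control and 4736 to 5253 in *MxCDX2* mice (log2 fold change 0.39 ± 0.10).

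*Irf4* (ENSMUSG00000021356, chr13:30749226-30766976, plus strand), the close relative of *Irf8*, was not called. Normalized counts were 3785, 5295 and 1128 in control mice 1 to 3, and 2249, 3902 and 2814 in *MxCDX2* mice 1 to 3. The control mice alone spanned 4.69-fold, because the wild type was lowest of all 6 mice, and the *MxCDX2* mice lay between. The log2 fold change of -0.19 ± 0.52 (adjusted p = 0.830) had no stable sign, being 0.021 with the replicate number as a block and 0.28 without control 2. Beside 4.59% of all tested genes called higher and 9.03% lower, B cell markers were called lower in 5 of 9 cases. Their sums were 21890 to 62015 in control and 6291 to 17903 in *MxCDX2* mice. The wild type was the lowest of the control mice here too. Plasma cell markers summed to 31508 to 108403 in control and 33399 to 87487 in *MxCDX2* mice, with 1 of 7 called, higher. Their part in the *Irf4* level was not tested.

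The sensor-linked pair of *Irf3* and *Irf7* did not differ between the groups beyond the spread. *Irf3* (ENSMUSG00000003184, chr7:44997648-45002848, plus strand), which is made constitutively and activated by phosphorylation, had 2808, 3247 and 2556 normalized counts in control mice 1 to 3 and 2795, 3419 and 2780 in *MxCDX2* mice 1 to 3. Its levels ran side by side in the groups, with a log2 fold change of 0.063 ± 0.14 (adjusted p = 0.782). *Irf7* (ENSMUSG00000025498, chr7:141262706-141266481, minus strand), which interferon itself induces, had 3321, 3066 and 6178 in control mice 1 to 3 and 2915, 5677 and 3619 in *MxCDX2* mice 1 to 3. It was highest in the wild-type control and in *MxCDX2* mouse 2 and about as low in all the others, so that the spread lay within the groups (2.01-fold in control and 1.95-fold in *MxCDX2* mice) and not between them (log2 fold change -0.042 ± 0.35, adjusted p = 0.946).

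*Irf1* (ENSMUSG00000018899, chr11:53770014-53778374, plus strand) was set apart by a single animal. Its normalized counts were 4110, 4681 and 5394 in control mice 1 to 3, and 9361, 4599 and 4322 in *MxCDX2* mice 1 to 3. *MxCDX2* mice 2 and 3 lay inside the range of the control mice and *MxCDX2* mouse 1 lay above all others. The log2 fold change was 0.37 ± 0.31 (adjusted p = 0.445), and -0.082 without *MxCDX2* mouse 1. *Irf2* (ENSMUSG00000031627, chr8:46739732-46847458, plus strand), its antagonist, had 4503, 5002 and 3550 in control mice 1 to 3 and 4692, 4537 and 4400 in *MxCDX2* mice 1 to 3. These *MxCDX2* values differed by only 1.07-fold among themselves and fell within the control range (log2 fold change 0.062 ± 0.14, adjusted p = 0.787).

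*Irf9* (ENSMUSG00000002325, chr14:55603571-55610030, plus strand), the DNA-binding subunit of the ISGF3 complex, differed by a small and even amount. Its normalized counts were 4769, 5365 and 5542 in control mice 1 to 3, and 7364, 6545 and 6258 in *MxCDX2* mice 1 to 3. The groups did not overlap and each was tight, at 1.16-fold and 1.18-fold from the lowest to the highest mouse. The means of 5225 ± 405 and 6723 ± 574 gave a 1.29-fold difference, a log2 fold change of 0.36 ± 0.11 (adjusted p = 0.0570), which missed the threshold on p and lay under that on size. Without the wild-type control the adjusted p was 0.0365, and with each of the other mice left out it was 0.114 to 0.166.

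**Figure D2:**
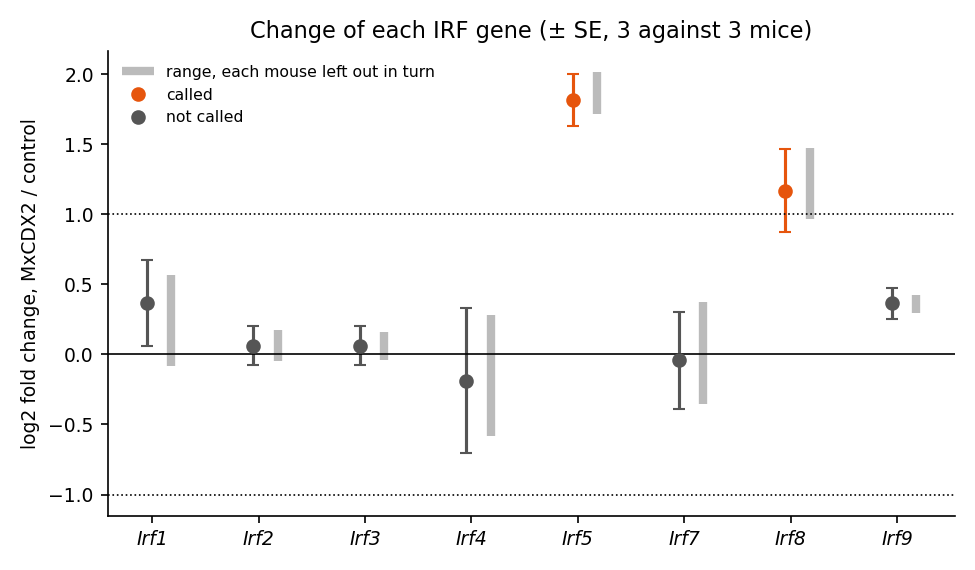
Log2 fold change of each IRF gene between *MxCDX2* and control mice (points, ± SE, called genes in orange) and the range of the same value with each mouse left out in turn (grey bars), with dotted lines at the threshold of 1. *Irf5* at 1.81 keeps a range of 1.71 to 2.02, *Irf8* at 1.17 has a range of 0.96 to 1.47 that crosses the line, and the ranges of *Irf1*, *Irf2*, *Irf3*, *Irf4* and *Irf7* include 0.

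Levels of different members were compared per length, as RPKM, that is reads scaled to the exon length in kilobases and to the library size. In control mice the order of the mean levels was *Irf8* (40.8 ± 14.1 RPKM, SD), *Irf5* (30.6 ± 6.91), *Irf1* (26.2 ± 3.56), *Irf7* (24.4 ± 10.1), *Irf9* (21.3 ± 1.65), *Irf3* (18.3 ± 2.24), *Irf4* (15.3 ± 9.46) and *Irf2* (12.9 ± 2.19). Every neighbour in that order overlapped the next over the 3 mice, while *Irf8* (27.1 to 55.3 RPKM), the first, did not overlap *Irf2* (10.6 to 14.9), the last. In the wild type *Irf8* was at 55.3 RPKM and *Irf4* at 5.06. In *MxCDX2* mice *Irf5* (107.5 ± 13.5 RPKM) and *Irf8* (91.7 ± 22.7) overlapped each other and stood clear of *Irf1* (33.7 ± 15.7), the next in order. After it came *Irf9* (27.4 ± 2.34), *Irf7* (23.7 ± 8.36), *Irf3* (19.2 ± 2.33), *Irf2* (13.5 ± 0.433) and *Irf4* (13.4 ± 3.77), in which *Irf3* was above *Irf2* in every mouse and the other neighbours overlapped. These orders hold for exon length only. With coding length *Irf2* was above *Irf3* in every mouse. In *MxCDX2* mice 1 to 3 *Irf2* then made up 8.67%, 6.94% and 7.86% of the summed level, and *Irf3* 4.45%, 4.51% and 4.28%. In control mice *Irf3* (mean 7.07%), not *Irf2* (12.5%), was then lowest. *Irf1* (17.96%) was then above *Irf5* (15.8%) in *MxCDX2* mouse 1, but not in mice 2 and 3. Summed over the 8 genes, the level was 164, 203 and 202 RPKM in control mice 1 to 3 and 308, 357 and 325 RPKM in *MxCDX2* mice 1 to 3.

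The make-up of the family shifted accordingly. *Irf5* and *Irf8* together held 33.0%, 38.5% and 40.4% of the summed level in control mice 1 to 3, and 54.3%, 61.3% and 64.9% in *MxCDX2* mice 1 to 3. The *Irf5* share was 16.5%, 18.9% and 12.96% in control mice and 31.4%, 28.9% and 37.7% in *MxCDX2* mice, without overlap. The *Irf8* share was 16.5%, 19.6% and 27.4% in control mice and 22.9%, 32.4% and 27.2% in *MxCDX2* mice, and these overlapped. Shares of one set must sum to 100%, and those of *Irf2*, *Irf3* and *Irf9* were lower in all 3 *MxCDX2* mice than in any control mouse although none of these genes had a lower mean count. For *Irf5*, *Irf2*, *Irf3* and *Irf9* the exact two-sided permutation test gave p = 0.10, the least possible, and 0.20 after adjustment over the 8 shares. The scale depends on the gene length used: with coding length in place of exon length the mean share of *Irf5* was 7.69% in control and 16.4% in *MxCDX2* mice, and that of *Irf8* was 31.0% and 42.4%, so that *Irf8* led in both groups. Which of them gained more also turned: the mean share rose by 16.5 points for *Irf5* and 6.35 for *Irf8* with exon length, and by 8.72 and 11.5 with coding length.

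**Figure D3:**
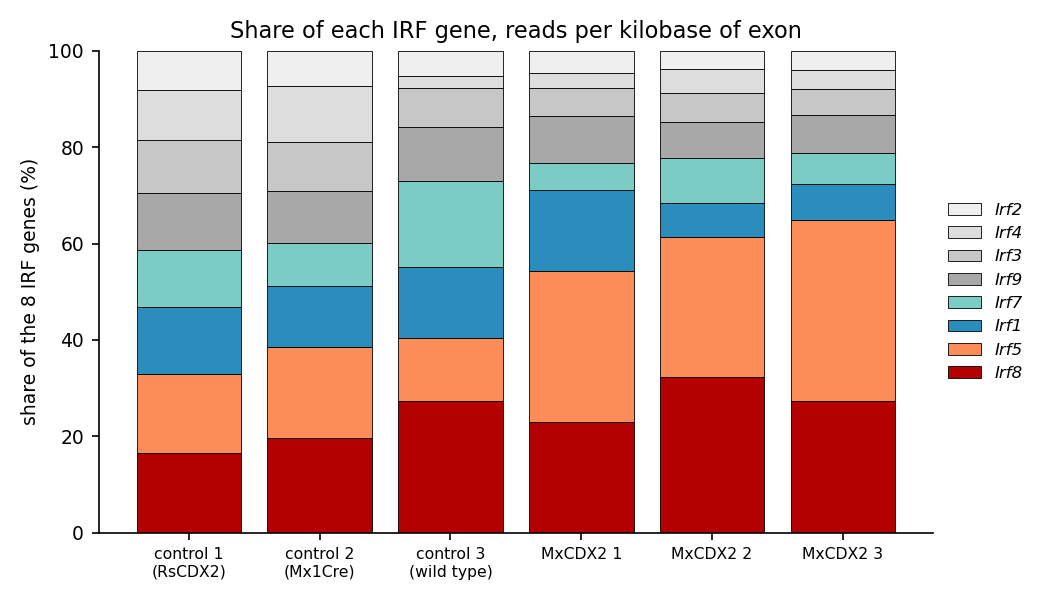
Share of each IRF gene in the summed level of the 8 genes (reads per kilobase of exon), 1 stacked bar for each mouse. *Irf5* and *Irf8*, the lowest segments, fill 33.0 to 40.4% of the bar in control mice and 54.3 to 64.9% in *MxCDX2* mice.

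Ratios of members within a library, which do not depend on the scaling between libraries, overlapped between the groups in all 5 pairs examined. The ratio of *Irf5* to *Irf8* reads was 0.409, 0.398 and 0.195 in control mice 1 to 3 and 0.563, 0.368 and 0.570 in *MxCDX2* mice 1 to 3, lowest in the wild type. The ratio of *Irf4* to *Irf8* reads was 0.435, 0.414 and 0.0635 in control mice and 0.0993, 0.105 and 0.0990 in *MxCDX2* mice. Here the wild type had the lowest ratio of all and the *MxCDX2* mice lay under the other control mice. *Irf1* to its antagonist *Irf2* stood at 0.913, 0.936 and 1.52 in control mice and at 2.00, 1.01 and 0.982 in *MxCDX2* mice. The ratio of inducible *Irf7* to constitutive *Irf3* was 1.18, 0.944 and 2.42 in control and 1.04, 1.66 and 1.30 in *MxCDX2* mice. *Irf9* to *Irf2* was 1.06, 1.07 and 1.56 in control and 1.57, 1.44 and 1.42 in *MxCDX2* mice. The exact permutation tests of the log2 ratios gave p from 0.30 to 0.90, and 0.625 to 0.90 after adjustment over the 5 pairs.

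The genes most like a called member were sought over the 6 mice by Pearson's r of log2(normalized count + 1) among 11981 other tested genes that averaged 100 normalized counts or more. As the 6 mice fall into 2 groups, genes that differ between the groups reach a high r, and 558 of these genes reached r = 0.95 with *Irf5* and 198 with *Irf8*. The closest to *Irf5* were *Lsp1* (r = 0.999, log2 fold change 1.05 ± 0.15), a leukocyte actin-binding protein gene, *Unc93b1* (r = 0.998, 0.92 ± 0.13), which encodes the chaperone that brings nucleic acid-sensing Toll-like receptors to endosomes, and *Mgam* (r = 0.997, 2.35 ± 0.22), a maltase gene. The closest to *Irf8* were *Thumpd2* (r = 0.998, 0.56 ± 0.20), *Ano8* (r = 0.998, 0.73 ± 0.22) and *Cul9* (r = 0.997, 0.96 ± 0.27). Among the members that were not called, *Irf7* was most like *Ifit1* (r = 0.982) and *Irf9* most like *Parp14* (r = 0.991), both interferon-response genes and both looked up after the values were seen. Those closest to *Irf1*, *Irf2*, *Irf3* and *Irf4* were *Fbxl19*, *Phrf1*, *Col7a1* and *Tesk2*, none of them on the lists of interferon-response genes used below.

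Interferon genes themselves were close to silent at this time. Of 17 interferon genes found in the files, 1 was tested, *Ifng*, named here after its values were seen, and the others had at most 5 reads in any mouse. *Ifng*, the cytokine of T and NK cells that induces IRF1, had 5.1, 14.9 and 21.9 normalized counts in control mice 1 to 3 and 38.1, 21.6 and 8.7 in *MxCDX2* mice 1 to 3, highest in the mouse with the highest *Irf1*. Its log2 fold change was 0.67 ± 0.68 (adjusted p = 0.535).

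The 8 lists of pathway genes were drawn up by role, but with earlier results of these data known. Over these lists 121 genes were tested, of which 16 (13.2%) were called higher and 6 (4.96%) lower, beside 4.59% and 9.03% of all tested genes. The number called was sensitive to single mice, being 14 without control 1, 14 without control 2, 29 without the wild type, 21 without *MxCDX2* 1, 14 without *MxCDX2* 2 and 12 without *MxCDX2* 3. Medians below are log2 fold changes over the tested genes of a list, and the median over all tested genes was 0.0021.

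**Figure D4:**
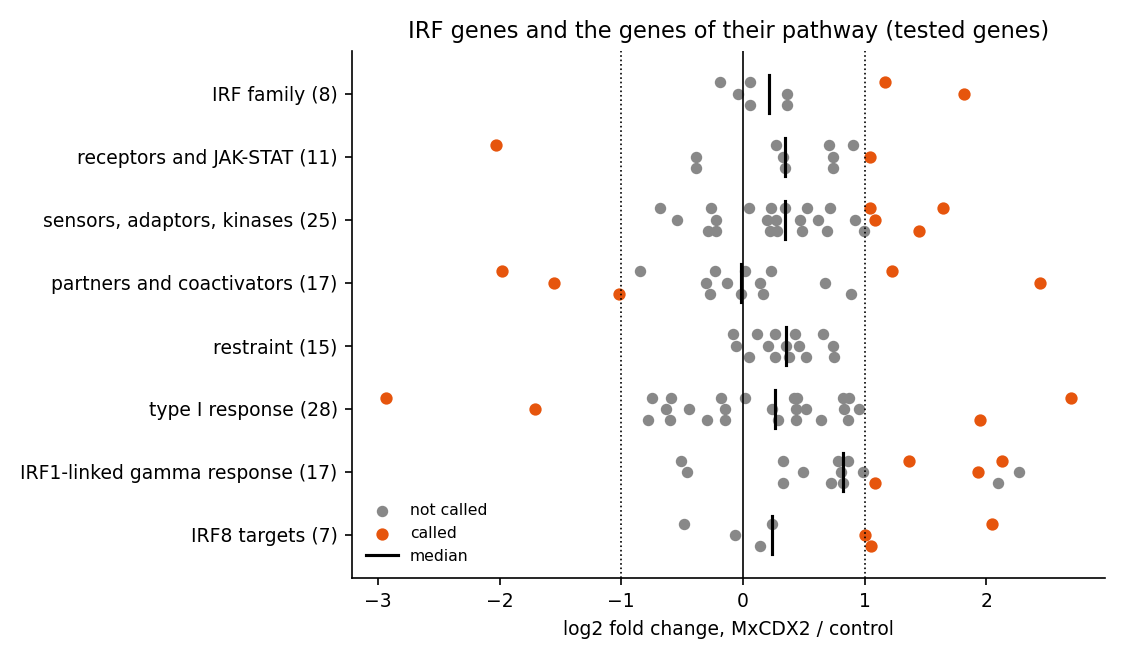
Log2 fold change between *MxCDX2* and control mice of each tested gene in the IRF family and in 7 lists of pathway genes (number tested in brackets, called genes in orange, black bars for medians, dotted lines at the threshold). Called genes lie on 1 side in the sensor list and in the IRF1-linked and IRF8 target lists, and on opposite sides among partners and type I response genes.

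Of all tested genes 4.59% were called higher and 9.03% lower. Upstream of IRF3, IRF5 and IRF7, 4 of 25 sensors, adaptors and kinases were called higher and none lower (median 0.35). They were *Ticam2*, the TRAM adaptor of Toll-like receptor 4 (log2 fold change 1.64 ± 0.23, adjusted p = 0.00467), *Tmem173*, which encodes STING (1.45 ± 0.20, 0.00507), *Cgas*, the DNA sensor that feeds STING (1.08 ± 0.17, 0.00646), and *Tlr9*, the receptor for CpG DNA (1.04 ± 0.24, 0.0251). *Tmem173* was at 2750.0, 2193.5 and 2642.1 normalized counts in control mice 1 to 3 and at 8935.4, 5378.4 and 6406.1 in *MxCDX2* mice 1 to 3. *Ticam2* and *Tmem173* kept their calls with any mouse left out. *Cgas* fell just short without the wild type, at 0.99, and *Tlr9* lost its call in 3 of the 6 fits with a mouse left out, with values from 0.84 to 1.22.

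Among 11 receptors and JAK-STAT genes, 1 was called in each direction (median 0.34), beside 4.59% higher and 9.03% lower of all tested genes. *Tyk2*, the kinase of the type I receptor, was higher (1.04 ± 0.12, adjusted p = 0.00301, and 0.94 without *MxCDX2* 2), and *Ifnlr1*, the interferon lambda receptor, was lower (-2.03 ± 0.28, 0.00487). *Stat2*, the partner of IRF9, had 3312.2, 3819.0 and 3894.7 normalized counts in control mice 1 to 3 and 5834.8, 7074.2 and 5152.6 in *MxCDX2* mice 1 to 3, passing on p but not on size (0.71 ± 0.14, 0.0159). *Ifngr1*, a chain of the interferon gamma receptor, passed on p (0.74 ± 0.16, 0.0219), as did *Ifnar2*, a chain of the type I receptor, named after its values were seen (0.91 ± 0.11, 0.00318). The other chain, *Ifnar1*, did not (0.27 ± 0.13, 0.178).

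Of 17 DNA-binding partners and coactivators, 2 were called higher and 3 lower (median -0.011), beside 4.59% and 9.03% of all tested genes. *Spi1*, which encodes PU.1, the partner of IRF8 and IRF4 on composite elements, was even between the groups, with 13659.1, 12880.8 and 9845.3 normalized counts in control mice 1 to 3 and 13011.7, 14223.8 and 12928.0 in *MxCDX2* mice 1 to 3 (0.14 ± 0.15, adjusted p = 0.536). Its relative *Spib*, a B cell and plasmacytoid dendritic cell factor, was lower (-1.98 ± 0.49, 0.0315), as were the lymphoid factors *Ikzf3* (-1.55 ± 0.42, 0.0419) and *Tcf3* (-1.02 ± 0.19, 0.0137). *Batf2* (2.45 ± 0.66, 0.0417) and *Jun* (1.22 ± 0.19, 0.00651) were higher, and *Batf3*, the dendritic cell partner of IRF8, was low throughout, from 25.6 to 218.8 normalized counts (-0.31 ± 0.72, 0.798). With the replicate number as a block, which pairs same-numbered mice, the adjusted p became 0.0639 for *Spib*, 0.0634 for *Ikzf3* and 0.0740 for *Batf2*, and *Tcf3* fell to -0.99, so that these 4 were no longer called. They also lost the call with 3 to 5 of the single mice left out, *Jun* with none. Of this list 0 were called lower without control 2, *MxCDX2* 2 or *MxCDX2* 3, and 1 without control 1.

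None of 15 genes that restrain IRFs or interferon signalling was called, beside 4.59% higher and 9.03% lower of all tested genes. Of these 15 genes, 13 had a positive log2 fold change (median 0.35). In edgeR 3 of them passed on the adjusted p but not on size, all higher, 4 were higher and 0 lower at an unadjusted p below 0.05, and DESeq2 and limma voom also called 0. The ubiquitin ligase gene *Trim21* stood at 0.75 ± 0.14 and the IRF2 corepressor gene *Irf2bp2* at 0.74 ± 0.14, both named after their values were seen.

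Of 28 type I interferon response genes, 2 were called higher and 2 lower (median 0.26), beside 4.59% and 9.03% of all tested genes, and the others were not called. The number called higher was 1 without control 1, control 2, *MxCDX2* 2 or *MxCDX2* 3, 3 without *MxCDX2* 1 and 5 without the wild type, and the number called lower was 2, or 3 without *MxCDX2* 1. *Mx1*, an antiviral GTPase gene, rose with 242.8, 579.9 and 491.4 normalized counts in control mice 1 to 3 and 1576.3, 4637.8 and 2303.4 in *MxCDX2* mice 1 to 3 (2.69 ± 0.49, adjusted p = 0.0119). *Mx2* rose with it (1.95 ± 0.49, 0.0336), though its call was lost with 4 of the 6 mice left out. *Rsad2*, which encodes viperin, fell from 26031.5, 17396.8 and 25470.8 in control mice 1 to 3 to 4371.8, 2294.4 and 2379.1 in *MxCDX2* mice 1 to 3 (-2.93 ± 0.31, 0.00240), and *Isg15*, a ubiquitin-like protein gene, fell too (-1.71 ± 0.21, 0.00356). Neither of these calls depended on any one mouse. *Ifit1* followed the mice and not the groups, with 419.1, 379.3 and 1199.8 in control mice 1 to 3 and 406.8, 919.9 and 441.3 in *MxCDX2* mice 1 to 3 (-0.18 ± 0.54, 0.845). The *Mx1Cre* transgene, which carries the *Mx1* promoter, was present in control 2 and in all *MxCDX2* mice, and neutrophil markers, as given above, fell in the same mice as *Rsad2*. The part of neither was tested.

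Of 17 IRF1-linked interferon gamma response genes, 4 were called higher and none lower (median 0.82), beside 4.59% and 9.03% of all tested genes. *Gbp3*, a guanylate-binding protein gene, had 725.8, 825.2 and 1003.8 normalized counts in control mice 1 to 3 and 5146.2, 2880.2 and 3176.5 in *MxCDX2* mice 1 to 3 (2.13 ± 0.26, adjusted p = 0.00318). It kept its call with any mouse left out. The immunoproteasome gene *Psmb10* (1.09 ± 0.16, 0.00591) fell to 0.94 without *MxCDX2* 1, and *Gbp7* (1.37 ± 0.33, 0.0304) and the chemokine gene *Cxcl10* (1.93 ± 0.48, 0.0320) each lost the call with 4 of the 6 mice left out. *Cxcl10* had an adjusted p of 0.0541 with the block. The count of called genes was 2 without control 1, control 2, *MxCDX2* 1 or *MxCDX2* 3, 4 without *MxCDX2* 2 and 8 without the wild type.

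Of 8 IRF8 targets of myeloid cells, 7 were tested. Of these 3 were called higher and none lower (median 0.24), beside 4.59% and 9.03% of all tested genes. *Klf4*, a monocyte transcription factor gene downstream of IRF8, had 900.9, 1412.0 and 433.1 normalized counts in control mice 1 to 3 and 2500.0, 4644.6 and 4206.3 in *MxCDX2* mice 1 to 3 (2.05 ± 0.45, adjusted p = 0.0211). In the wild type, the control mouse with the most *Irf8*, *Klf4* was lowest. The protease gene *Ctsc* (1.05 ± 0.17, 0.00792) and the protease inhibitor gene *Cst3* (1.001 ± 0.20, 0.0164) lay just over the threshold on size, *Cst3* so narrowly that 8 of 15 other settings lost it. *Klf4* lost its call in 3 of the 6 fits with a mouse left out, with log2 fold changes from 1.73 to 2.51, and *Ctsc* in 2 of them. The count of called targets was 1 without control 1, control 2, *MxCDX2* 2 or *MxCDX2* 3, 2 without *MxCDX2* 1 and 3 without the wild type.

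The spread of *Irf1* and *Irf7* between mice had counterparts in the response genes, a comparison chosen after the values were seen. *MxCDX2* mouse 1, with the highest *Irf1*, was the highest mouse for 14 of the 17 IRF1-linked genes (82.4%), against 14.1% of all tested genes. *MxCDX2* mouse 2 and the wild-type control, with the highest *Irf7*, were highest for 11 and 10 of the 28 type I response genes (39.3% and 35.7%), against 18.7% and 23.7% of all tested genes. *MxCDX2* mouse 1 was highest for only 3 of these 28. *MxCDX2* mouse 2 was also highest for 36.4% of the receptor and JAK-STAT genes and 32.0% of the sensor list. The wild type was highest for 9.09% and 12.0% of them. Genes of a list are not independent, and no test was made.

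**Figure D5:**
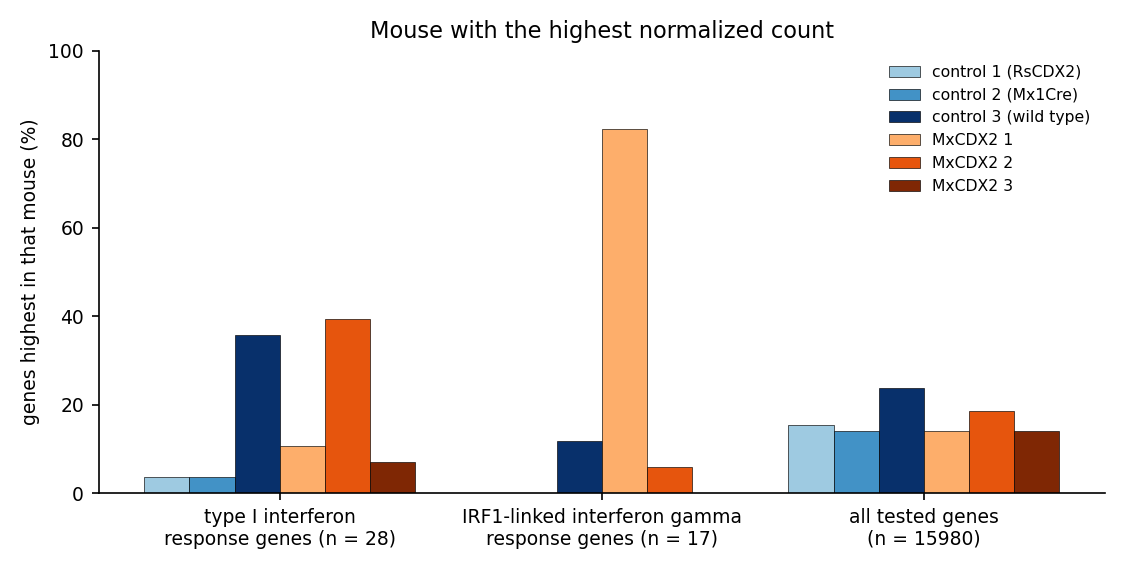
Percentage of genes in a list for which a given mouse had the highest normalized count, for the type I interferon response genes (28), the IRF1-linked interferon gamma response genes (17) and all 15980 tested genes. *MxCDX2* mouse 1 leads the IRF1-linked list with 82.4%, and *MxCDX2* mouse 2 and the wild-type control lead the type I list with 39.3% and 35.7%.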

How the data were processed

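RNA-seq counts of bone marrow from 3 *MxCDX2* and 3 control mice were used. The authors demultiplexed with bcl2fastq 2.17.1.14, aligned to GRCm38 with STAR 2.5 and deposited raw counts per gene from HTSeq 0.6.1, without normalization. Reads assigned to no gene (9.22 to 14.1%) or to several (2.99 to 3.16%) were left out. Symbols, positions and exon lengths came from GENCODE M21, promoters from RefSeq (GRCm38.p6). The fit used edgeR 4.0.16 in R 4.3.3 (TMM, filterByExpr, glmQLFit, glmQLFTest, Benjamini-Hochberg), and SEs derived from the quasi-likelihood F. DESeq2 1.42.0 and limma 3.58.1 (voom) were alternatives, as were other scalings, filters, a test against a 2-fold change, a replicate block and each mouse left out. Replicate numbers were taken as pairs in the replicate block only, and the main fit had no pairs. No label names such pairs, and the paper calls all the mice littermates. Control and *MxCDX2* mice with equal numbers varied alike only weakly (r = 0.163, 0.287 and 0.179). With unequal numbers r was -0.333 to 0.114, so the numbers may not mark true pairs. On simulated data, 165 of 200 genes changed 4-fold were recovered with 15 false calls among 15721. Members and lists were chosen with earlier results of these data known. Named were all members, called pathway genes, 10 genes named whatever their values and the 3 genes most like each called member. A further gene of that rule is not reported here. Depth was 38646101 to 49899650 counted reads per mouse. Python 3.11.15, pandas 2.3.3 and matplotlib 3.10.9 were used.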

Additional observations from a re-analysis of the deposited data

How the results depend on the processing

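*Irf5* kept its call under all 15 alternatives and *Irf8* under 10 of them. Testing against a 2-fold change left 611 genes of all, 4 pathway genes (1 higher and 3 lower, against 16 and 6) and 1 IRF gene called, and *Irf8*, at 1.17, was not among them. With each mouse left out in turn, between 1205 and 2406 genes of all, 12 and 29 pathway genes, and 1 and 2 IRF genes were called. The ranges of the log2 fold change were then 0.96 to 1.47 for *Irf8*, -0.082 to 0.57 for *Irf1*, -0.048 to 0.17 for *Irf2*, -0.037 to 0.16 for *Irf3*, -0.58 to 0.28 for *Irf4* and -0.35 to 0.37 for *Irf7*. The difference between the groups in the log2 ratio of *Irf1* to *Irf2* ranged from -0.13 to 0.44, and that of *Irf7* to *Irf3* from -0.37 to 0.31. *Irf4* also turned in sign with limma voom (0.048) and with the replicate block (0.021), and *Irf7* with total counts only (0.068), a scaling that moved the median of all genes from 0.0021 to 0.12, above that value. The cause of these turns was not tested. The block, which pairs same-numbered mice, called 2205 genes of all, 17 pathway genes (14 higher and 3 lower) and 2 IRF genes, with 1.20 for *Irf8* and 1.83 for *Irf5*, and changed no member's call. Coding length changed the direction of no share, though it changed the order of the members and which of *Irf5* and *Irf8* gained more. A search of 1 strand changed no count of members with a motif. For the gamma-activated site it could not, since those letters read the same on both strands. The lowest count of any of the 8 genes in any library was 1237 reads (*Irf4* in the wild type). Each group held 3 mice, and each control mouse was of another genotype.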
